A study of Homo sapiens with 20 samples.

Results

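In LNCaP cells depleted of CTCF, 10989 H3K27ac regions were called in each of the 2 CTCF siRNA libraries but not in the control libraries, and these siCTCF-only regions are described here. H3K27ac is acetylation of lysine 27 of histone H3, detected by chromatin immunoprecipitation and sequencing (ChIP-seq). The regions were chosen by merging all regions of the 4 H3K27ac libraries that overlapped by at least 1 bp on chromosomes 1 to 22 and X. They made up 8.65% of the 127074 merged regions and 13.2% of the 83094 regions found in at least 2 libraries. Opposite to them stood 1540 regions that the control libraries shared and the CTCF siRNA libraries lacked (control-only regions), while 47263 regions were called in all 4 libraries (shared regions). Just outside the rule lay 12610 regions in both CTCF siRNA libraries and 1 control library, and 29094 regions in 1 CTCF siRNA library alone. Because these lists chose the regions, everything said of H3K27ac itself is a description without a test.

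LNCaP is a prostate cancer cell line that depends on androgen signalling. The cells were transfected with 20 nM of a control siRNA pool or of a pool of 4 siRNAs against CTCF, and chromatin was collected at 144 h, after the cells had been split and transfected again. H3K27ac, H3K4me3 and CTCF were each profiled in 2 libraries per treatment, 12 libraries in all, which the study's methods call biological duplicates. The luminal marker genes KLK3, KLK2, TMPRSS2, FOXA1 and HOXB13 each carried both histone marks at a start site in all 4 libraries of each mark. Of 5 fibroblast genes, COL1A2, COL3A1 and TWIST1 had no H3K27ac region at a start site in any library, whereas COL1A1 and PDGFRB had one in all 4. The 2 control lists of H3K27ac held 86949 and 69949 regions, and the lists after CTCF siRNA held 94415 and 98973. CTCF lists held 37969 and 46293 peaks in control cells, then 3711 and 7716.

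CTCF is a zinc finger protein that binds a long DNA motif, anchors chromatin loops together with cohesin and can separate an enhancer from a promoter. H3K27ac marks active enhancers and promoters and is laid down by the acetyltransferases p300 and CBP, which transcription factors bring to open chromatin. H3K4me3 is largely a mark of active promoters, so an acetylated region without it is usually taken as a candidate enhancer. AP-1, a dimer of FOS and JUN family proteins that responds to growth factors and stress, binds the letters TGACTCA, and FOXA1, a pioneer factor of luminal prostate cells, binds a forkhead motif that contains TGTTTAC.

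The sequences below are taken from hg19 and were chosen for an AP-1 or CTCF match, although 83.5% of siCTCF-only regions held no AP-1 match in their central 500 bp. The first 3 are the plus strand of 150-base windows in VPS13A, USP25 and ZNF385B, genes with many siCTCF-only regions, each from the widest such region with an AP-1 match near its middle. No window of this kind was found in CERS6. The following 3 come from the widest regions with 2 AP-1 matches in the window, near SHB, in SHROOM3 and near BACH2. Repeats in which the matches had like flanks were passed over, and windows overlapping an untranslated region were not used. Capitals mark TGACTCA on either strand.

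VPS13A chr9:79859206-79859355: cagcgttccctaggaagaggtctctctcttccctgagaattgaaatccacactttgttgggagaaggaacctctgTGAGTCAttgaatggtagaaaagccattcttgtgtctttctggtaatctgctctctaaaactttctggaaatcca
USP25 chr21:17142501-17142650: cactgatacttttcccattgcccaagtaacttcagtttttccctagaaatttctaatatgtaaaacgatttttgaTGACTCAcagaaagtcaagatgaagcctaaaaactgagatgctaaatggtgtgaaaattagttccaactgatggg
ZNF385B chr2:180537051-180537200: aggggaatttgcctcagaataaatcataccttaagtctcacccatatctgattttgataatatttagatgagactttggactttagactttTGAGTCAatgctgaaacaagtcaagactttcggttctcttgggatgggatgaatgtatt
SHB chr9:38171396-38171545: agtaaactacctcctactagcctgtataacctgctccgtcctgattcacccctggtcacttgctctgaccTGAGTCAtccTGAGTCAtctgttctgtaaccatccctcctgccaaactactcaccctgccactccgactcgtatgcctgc
SHROOM3 chr4:77693655-77693804: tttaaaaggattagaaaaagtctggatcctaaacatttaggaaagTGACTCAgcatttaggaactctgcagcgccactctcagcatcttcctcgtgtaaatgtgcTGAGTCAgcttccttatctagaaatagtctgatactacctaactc
BACH2 chr6:91078815-91078964: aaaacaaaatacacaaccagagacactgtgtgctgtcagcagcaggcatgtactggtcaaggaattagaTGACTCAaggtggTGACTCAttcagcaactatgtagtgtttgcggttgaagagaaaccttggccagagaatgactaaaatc

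The next 4 sequences come from siCTCF-only regions with a control CTCF site that was still called in both CTCF siRNA libraries. Each is the best match to the CTCF consensus near the summit of the region's highest peak in control replicate 2, printed on the strand of the match. The MAMDC2 region also overlapped a site not called in both, and which site holds the printed match was not checked. The last 2 are matches at control CTCF sites in siCTCF-only regions that were not called in both CTCF siRNA libraries. Of the 4 such sites named below, those at RBM28 (3 of 14 bases mismatched) and near POLR3K (0 mismatched) are not printed. The site near LRRC37A3 had no peak after CTCF siRNA, and that near WAPL kept one in replicate 2. Capitals mark the 14 bases set against the consensus, with 1 mismatch each at PLEKHB2, SEC14L1 and WAPL and 0 at MAMDC2, IGF1R and LRRC37A3.

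PLEKHB2 chr2:131911721-131911760 (plus strand): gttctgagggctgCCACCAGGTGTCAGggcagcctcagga
SEC14L1 chr17:75052499-75052538 (minus strand): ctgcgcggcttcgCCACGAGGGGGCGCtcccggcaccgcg
MAMDC2 chr9:72726069-72726108 (minus strand): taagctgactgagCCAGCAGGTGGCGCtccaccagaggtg
IGF1R chr15:99322995-99323034 (plus strand): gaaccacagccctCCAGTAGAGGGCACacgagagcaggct
LRRC37A3 chr17:62935171-62935210 (minus strand): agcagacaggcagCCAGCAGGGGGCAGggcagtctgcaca
WAPL chr10:88345370-88345409 (minus strand): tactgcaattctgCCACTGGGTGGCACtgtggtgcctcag

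The siCTCF-only regions were narrow. Their merged width had a median of 1450 bp (quartiles 1200 and 1750 bp), against 2700 bp for shared regions and 1150 bp for control-only regions. Within the list of CTCF siRNA replicate 1 they lay at a median width percentile of 27.4, and within that of replicate 2 at 35.1. Only 1.16% and 4.07% of them were in the widest 25% of the respective list. Ranked by the deposited score from low to high, they lay behind the middle of both lists, at median percentiles of 70.7 and 63.0. When all 4 lists were shortened to 69949 regions, the length of the shortest, 5918 siCTCF-only and 2673 control-only regions were obtained, and 4397 of the former (74.3%) were among those described here. These 4397 were 40% of the full set. List length therefore moved with the count, and its part in any single region was not tested.

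The widest siCTCF-only region spanned 10000 bp in an intron of ZNF385B, a zinc finger gene (chr2:180699201-180709200). Its region in CTCF siRNA replicate 1 was 3350 bp wide and that in replicate 2 was 10000 bp wide. A second wide region in ZNF385B (chr2:180569051-180576400) had widths of 4000 and 7250 bp. In an intron of LIN7A, which encodes a scaffold protein of cell junctions, the widths were 6300 and 6900 bp (chr12:81258151-81265200). An intergenic region 8355 bp from LRRC58 had widths of 6250 and 6850 bp (chr3:120028151-120035000). The region chr9:79805801-79812150 in VPS13A, which encodes a lipid transfer protein, measured 6300 bp in both libraries. None of these 5 widest regions overlapped an H3K4me3 region or a CTCF peak in any library. That was common, since 82.2% of all siCTCF-only regions overlapped no H3K4me3 region. CTCF peaks overlapped 5.54% and 6.48% of them in the control libraries and 1.07% and 1.87% in the CTCF siRNA libraries.

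Most siCTCF-only regions lay away from promoters. Of the 10989, 641 (5.83%, Wilson 95% interval 5.41 to 6.29) came within 1000 bp of a protein-coding transcript start, against 24.3% of shared regions, 8.11% of the regions in both CTCF siRNA libraries and 1 control library, and 7.66% of control-only regions. Regions of 1 CTCF siRNA library alone gave 5.55%. Introns of protein-coding genes held 42.8% of the siCTCF-only regions and 29.4% of shared regions, with 41.4% for regions of both CTCF siRNA libraries and 1 control library and 45.5% for those of 1 CTCF siRNA library. Exons held 15.6%, other annotated genes 12.3%, and 23.4% were intergenic. The intervals quoted here and below cover counting error only, since regions of one pair of libraries are not replicates. The median distance to the nearest protein-coding start was 25960 bp, compared with 17039 bp for shared regions. It was 26260 bp for regions of both CTCF siRNA libraries and 1 control library. Regions of 1 CTCF siRNA library gave 22004 bp and control-only regions 41455 bp. The central 500 bp of siCTCF-only regions had a median GC content of 44.4%, close to the 45.2% of shared regions. Of the siCTCF-only regions, 1.51% held 20 or more CpG dinucleotides, against 13.5% of shared regions. The other classes were low as well, with 2.56% in regions of both CTCF siRNA libraries and 1 control library. Regions of 1 CTCF siRNA library gave 1.43% and control-only regions 5.32%.

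The 641 promoter-proximal regions touched the starts of 633 genes, and for 304 of these genes no start site held a shared H3K27ac region. At 10 of the 641 (1.56%) H3K4me3 followed the same rule, with a region in each CTCF siRNA library and none in control cells, which 1.99% of all H3K27ac regions in at least 2 libraries did. The 8 widest of the 10 lay at PAEP, SOX6, GP2, MYRFL, TEX35, SCARA5, WFDC6 and HTR4. PAEP encodes glycodelin, a secreted lipocalin, and its H3K4me3 regions were 750 and 700 bp wide after CTCF siRNA. SOX6 encodes a transcription factor of the SOX family, and there the H3K4me3 regions were 1050 and 950 bp wide. HTR4 encodes a serotonin receptor and had the widest H3K4me3 regions of the 8, with 2100 and 2000 bp. A CTCF peak had been called in control cells at 3 of the 8. Over all siCTCF-only regions the share was 5.54% and 6.48% in the control libraries, and a share for start sites alone was not computed. Fold enrichment at SCARA5, a ferritin receptor gene, was 28.0 and 22.4 in the control libraries, at TEX35 4.69 and 9.57, and at GP2, which encodes a glycoprotein of secretory granules, 4.24 and 5.24. No CTCF peak was called at these 3 start sites after CTCF siRNA. That was common, since only 10% and 20.6% of all CTCF sites of the control cells had a peak in the CTCF siRNA libraries. A link between CTCF and H3K4me3 at these start sites was not tested.

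H3K4me3 was measured in libraries that took no part in choosing the regions. It overlapped 4.79% and 7.38% of the siCTCF-only regions in the control libraries and 8.01% and 14.8% in the CTCF siRNA libraries. The 2 groups did not overlap, and the means differed by 5.33 percentage points, or 1.88 times (6.08% ± 1.83 and 11.4% ± 4.81, SD, n = 2; exact two-sided permutation p = 0.333, the smallest that 2 against 2 libraries can give). At shared regions the control libraries gave 48.6% and 61.6% and the CTCF siRNA libraries 54.3% and 66.9%. There the groups overlapped, and the means differed by 5.48 percentage points, or 1.1 times (exact permutation p = 0.667). Regions of both CTCF siRNA libraries and 1 control library differed by 6.04 percentage points, or 1.41 times (exact permutation p = 0.667). Over all regions in at least 2 libraries the difference was 4.64 percentage points. In percentage points the siCTCF-only regions therefore did not stand apart. Control-only regions had the lower mean after CTCF siRNA, with 16% and 23.8% in control cells, then 12.2% and 19% (0.784 times, exact permutation p = 0.667). The H3K4me3 lists were themselves of unequal length, with 36492 and 48462 regions in control cells, then 41107 and 59774. Divided by the share at shared regions of the same library, the siCTCF-only regions had 0.0985 and 0.12 in control cells, then 0.148 and 0.222 (exact permutation p = 0.333). On this scale the groups also separated at regions of both CTCF siRNA libraries and 1 control library (0.235 and 0.291, then 0.297 and 0.378) and, in the other direction, at control-only regions (0.329 and 0.386, then 0.225 and 0.284), each with an exact permutation p of 0.333. With the 4 H3K4me3 lists at equal length the difference was 1.94 percentage points, or 1.4 times, and without H3K4me3 CTCF siRNA replicate 2 it was 1.92 percentage points.

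**Figure D1:**
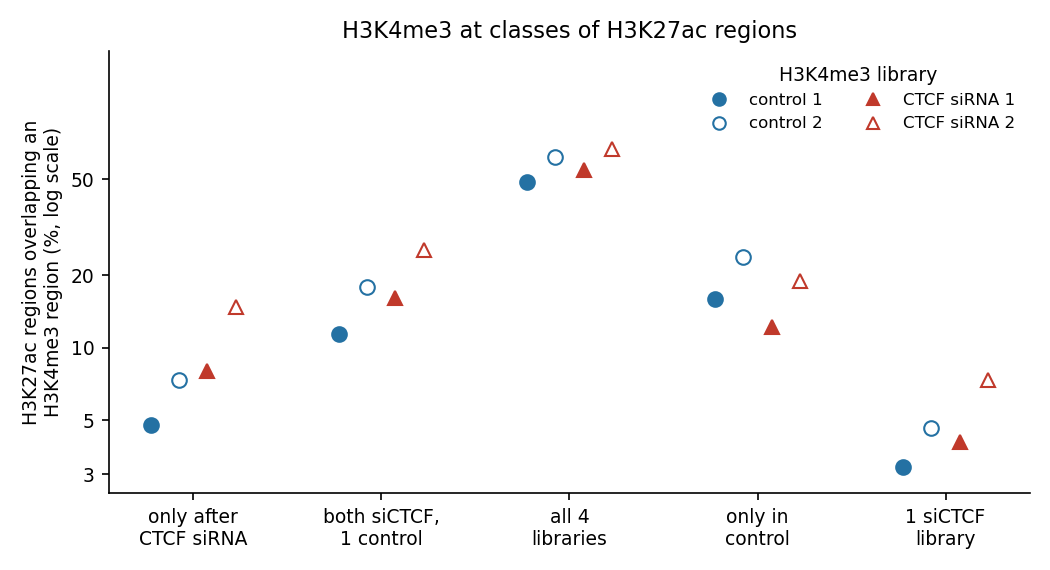
Share of H3K27ac regions that overlapped an H3K4me3 region (y axis, per cent, log scale) in 5 classes of H3K27ac regions (x axis), with 1 point per H3K4me3 library. At the siCTCF-only regions both CTCF siRNA libraries (8.01% and 14.8%) lay above both control libraries (4.79% and 7.38%), whereas at shared regions the groups overlapped. The means differed by 5.33 percentage points at siCTCF-only and by 5.48 at shared regions.

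Region by region, few siCTCF-only regions also switched in H3K4me3. H3K4me3 present in each CTCF siRNA library and absent from the control libraries was found at 161 of them (1.47%, interval 1.26 to 1.71), against 1.99% of all regions in at least 2 libraries. The bases differ, since fewer siCTCF-only regions had H3K4me3 in any library. The 161 were among 1961 siCTCF-only regions with H3K4me3 in any library (17.8%), and over all regions it was 1650 among 44878 (54%). The opposite call was made at 10 siCTCF-only regions (0.091%), against 0.77% of all such regions. No H3K4me3 region was called in any library at 9028 siCTCF-only regions (82.2%), compared with 25.1% of shared and 69.7% of control-only regions. Regions of both CTCF siRNA libraries and 1 control library gave 67.4%, and those of 1 CTCF siRNA library 90.8%. The siCTCF-only regions with H3K4me3 in all 4 libraries numbered 408 (3.71%), of which 210 were at start sites. In introns the H3K4me3 share was 2.23% and 5.06% in the control libraries and 5.61% and 11.5% after CTCF siRNA. Intergenic siCTCF-only regions gave 3.81% and 6.37%, then 7.69% and 15.3%. At start sites the corresponding shares were 34.5% and 37.4%, then 37.3% and 43.8%, so that CTCF siRNA replicate 1 was level with control replicate 2.

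CTCF had been called at few of these regions in control cells. Of the 33377 CTCF sites present in both control libraries, 3091 were persistent, meaning that a peak was called in both CTCF siRNA libraries, and the other 30286 were counted as lost, including those with a peak in 1 CTCF siRNA library. Lost sites overlapped 465 siCTCF-only regions (4.23%, interval 3.87 to 4.62), against 8.03% of all H3K27ac regions in at least 2 libraries, 10.1% of shared and 18.2% of control-only regions. The share was 4.5% (4.15 to 4.87) in regions of both CTCF siRNA libraries and 1 control library and 2.54% in those of 1 CTCF siRNA library. Persistent sites overlapped 108 (0.983%, interval 0.815 to 1.19), against 0.756% of all such regions, 0.749% of shared and 1.49% (0.997 to 2.23) of control-only regions. Shared regions were also the wider class, and the part of width in these shares was not tested. Sites gained after CTCF siRNA were rare (47 genome-wide). Exactly 1 fell in a siCTCF-only region, an intergenic one at chr6:3952851-3953900, where fold enrichment was 8.05 and 6.81 after CTCF siRNA.

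Of 579 control CTCF sites in siCTCF-only regions, 108 persisted (18.7%, interval 15.7 to 22), compared with 6.46% of the 5561 sites in shared regions, 12% of the 657 in regions of both CTCF siRNA libraries and 1 control library, and 9.26% of all control sites. Regions of 1 CTCF siRNA library alone gave a like share, 16.6% (14.3 to 19.2). In 1 CTCF siRNA library at a time, a peak was called at 19.3% and 35.4% of the sites in siCTCF-only regions, against 7.21% and 17.2% in shared regions. The sites in siCTCF-only regions were somewhat stronger in control cells, with a median fold enrichment of 14.8 against 11.8 in shared regions. Among the 25% of control sites with the highest control fold enrichment, 75 of 196 persisted in siCTCF-only regions (38.3%, interval 31.7 to 45.2), against 18.5% in shared regions, 29.7% (23.5 to 36.7) in regions of both CTCF siRNA libraries and 1 control library, 28.5% in those of 1 CTCF siRNA library and 28.2% outside all H3K27ac regions. The 25% next below gave 13.2% (interval 8.68 to 19.5), against 5.59%, 8.39%, 14.2% and 7.41% in the same order. H3K27ac and CTCF lists were both longer in CTCF siRNA replicate 2 than in replicate 1, and the part of list length in these calls was not tested. CTCF siRNA replicate 1 also had by far the fewest reads of the LNCaP CTCF libraries, and a lost site may rest on that depth, which was not tested either.

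Among the siCTCF-only regions with a persistent site, the widest lay in an intron of PLEKHB2 (chr2:131908151-131912500). Its fold enrichment for CTCF was 24.8 and 40.5 in control cells, then 7.38 and 8.55. In the intron of IGF1R, the gene of the insulin-like growth factor 1 receptor, the values were 23.4 and 38.7, then 8.82 and 11 (chr15:99321301-99324050). H3K4me3 was called at the IGF1R region after CTCF siRNA in each library and not in control cells, and so it was at the intergenic region 31330 bp from SEC14L1 (chr17:75050751-75053500), where CTCF enrichment was 30.0 and 22.7, then 12.6 and 10.2. At an exon of MAMDC2 the values were 25.2 and 32.0, then 12.6 and 34.6, so replicate 2 was no lower after CTCF siRNA than the control libraries there. The MAMDC2 region also overlapped a lost site, so these values may not all come from the same site. Over all 108 persistent sites the control libraries had median fold enrichments of 20.8 and 25.4 and the CTCF siRNA libraries of 9.45 and 14.7. These ratios are to local background and are not scaled between libraries.

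The widest siCTCF-only regions over lost sites were at RBM28, which encodes a nucleolar RNA-binding protein (CTCF fold enrichment 7.99 and 10.2 in control cells, no peak after CTCF siRNA), and 18252 bp from LRRC37A3 (11.5 and 13, no peak after). At the region 62051 bp from WAPL, the gene of a protein that releases cohesin from DNA, CTCF enrichment was 21.7 and 23.8 in control cells, and a peak of 12.2 remained in CTCF siRNA replicate 2 alone. The fourth, 32906 bp from POLR3K, had 16.0 and 16.2 with a peak of 9.65 in replicate 2, and carried H3K4me3 in all 4 libraries.

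Median distances to lost CTCF sites lay in a narrow range over the classes. The median distance from a siCTCF-only region to the nearest lost site was 25867 bp (quartiles 9244 and 56416 bp), against 27376 bp for the regions of both CTCF siRNA libraries and 1 control library, 23512 bp for shared and 22769 bp for control-only regions. Within 1000 bp of a lost site lay 6.61% of siCTCF-only, 11.9% of shared and 20.7% of control-only regions. To the nearest persistent site the median was 275467 bp, against 279251 bp for shared and 344382 bp for control-only regions. The nearest shared H3K27ac region was at a median of 11250 bp (quartiles 3550 and 31250 bp), compared with 8300 bp from one shared region to the next. This median was 10250 bp for regions of both CTCF siRNA libraries and 1 control library. Control-only regions gave 10125 bp and regions of 1 CTCF siRNA library 9975 bp. Of the siCTCF-only regions, 47.3% had a shared region within 10000 bp. A region of either control library, shared or not, was found at a median of 6350 bp. For 8656 siCTCF-only regions (78.8%) no control CTCF site lay between them and the nearest shared region. Another 2000 (18.2%) were separated from it by lost sites alone, and 333 (3.03%) by a persistent site. The share with no site between was 81.4% for regions of both CTCF siRNA libraries and 1 control library and 82.5% for control-only regions. At equal distances, the siCTCF-only and control-only classes gave 98% and 98.4% under 5000 bp and 87.3% and 86.4% from 5000 to 20000 bp, while from 20000 to 50000 bp they gave 65.9% (interval 63.9 to 67.8) and 73.2% (67.6 to 78.2), and from 50000 bp on 39.2% (36.9 to 41.5) and 55.4% (49.5 to 61.1). Regions of both CTCF siRNA libraries and 1 control library gave 70.1% and 40.8% at these 2 larger distances.

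**Figure D2:**
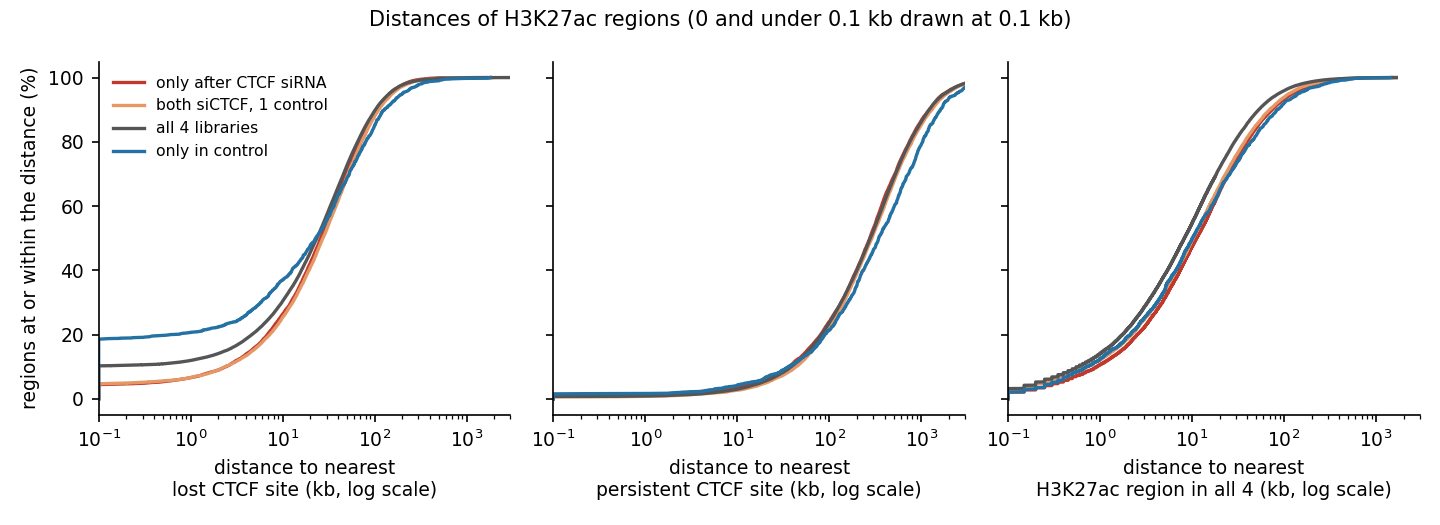
Cumulative share of regions (y axis, per cent) within a given distance (x axis, kb, log scale) of the nearest lost CTCF site, persistent CTCF site and shared H3K27ac region, for siCTCF-only regions (red), regions of both CTCF siRNA libraries and 1 control library (orange), shared regions (grey) and control-only regions (blue). Overlaps and the shortest distances are drawn together at the left edge. Lost sites overlapped 4.23% of siCTCF-only and 18.2% of control-only regions, and at 50 kb the curves for lost sites lie between 68.6% and 72.6%.

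The DNA of the siCTCF-only regions held the AP-1 motif more often than that of the other classes. TGACTCA was present on either strand in the central 500 bp of 1813 siCTCF-only regions (16.5%, interval 15.8 to 17.2). The share was 13% (12.4 to 13.6) in regions of both CTCF siRNA libraries and 1 control library, 11% in shared regions, 11.8% in regions of 1 CTCF siRNA library and 9.29% (7.94 to 10.8) in control-only regions. Over all H3K27ac regions in at least 2 libraries it was 11.8%. No test was made over regions. In windows of the same length 5000 bp away the share ranged from 7.14% to 7.69% over the 5 classes. Among regions without a start site or an H3K4me3 region in any library and with a width of 1000 to 2000 bp, AP-1 shares were 18% for siCTCF-only, 15.4% for shared, 14.3% for those of both CTCF siRNA libraries and 1 control library and 10.4% for control-only regions. At a GC content from 40 to 50% they were 17.3%, 12.7%, 13.7% and 11.4%. Of the siCTCF-only regions, 155 held 2 matches and 19 held 3 or more, as in the sequences of SHROOM3 and BACH2 above.

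The same letters were also counted in regions called in a single library, which come from the same 4 H3K27ac lists that chose the siCTCF-only regions. AP-1 matches were found in 8.74% and 8.31% of the regions called in 1 control library alone and in 13.4% and 10.9% of those called in 1 CTCF siRNA library alone. The groups did not overlap and differed by 3.63 percentage points (n = 2 libraries per group). This is a description and no separate support, since the lists are the same and AP-1 was chosen after looking at them. For the forkhead letters TGTTTAC the single-library shares were 15.2% and 6.29% in control cells, then 11.5% and 10.1%, which overlapped. The letters of TEAD (25.3% and 28.1%, then 29.3% and 27.6%), RUNX (9.54% and 8.13%, then 10.1% and 8.93%) and GATA factors (34% and 17.8%, then 30.7% and 27.6%) overlapped too.

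GGAATG, read by TEAD factors of the Hippo pathway, was present in 29.4% (28.5 to 30.2) of siCTCF-only regions, 27.8% of those of both CTCF siRNA libraries and 1 control library, 25.4% of shared and 25.6% of control-only regions. TGTTTAC stood at 12.1% (11.5 to 12.7) in siCTCF-only regions, below the 13.1% of shared and the 14.9% of the regions of both CTCF siRNA libraries and 1 control library. Letters typical of promoters were rarer at siCTCF-only than at shared regions: GGGCGGG, bound by SP and KLF proteins, was found in 3.2% and 10%, and CCGGAAG, bound by ETS factors, in 1.78% and 4.38%. The other classes were low too, with 3.28% and 1.78% in regions of both CTCF siRNA libraries and 1 control library. Regions of 1 CTCF siRNA library gave 3.2% and 1.82%, and control-only regions 5.06% and 2.08%. AGATAA, the letters of GATA factors, stood at 31.8% and 27.2% in siCTCF-only and shared regions, TGTGGTT of RUNX factors at 10.1% and 9%, TGACGTCA, the cAMP response element, at 0.237% and 0.495%, and CTCGTAAA, which HOXB13 binds, at 0.355% and 0.457%. In the same order, regions of both CTCF siRNA libraries and 1 control library gave 32.8%, 9.61%, 0.182% and 0.492%. Those of 1 CTCF siRNA library gave 28.7%, 9.34%, 0.206% and 0.323%. A match is a run of letters and does not show that a factor was bound.

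**Figure D3:**
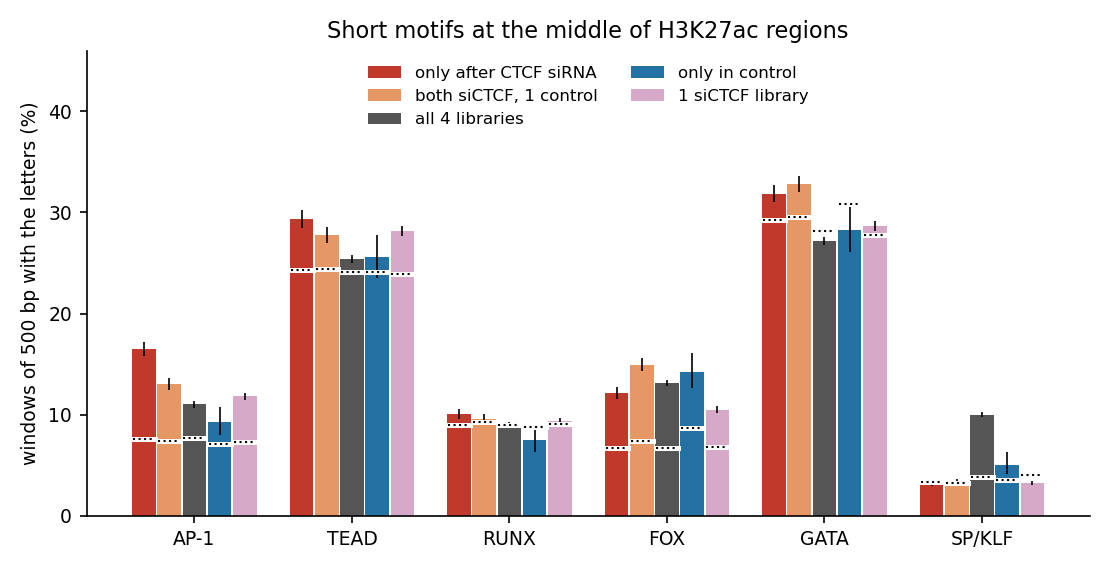
Share of 500-bp windows at the middle of H3K27ac regions that held the letters of 6 motifs on either strand (y axis, per cent), for 5 classes of regions; error bars are Wilson 95% intervals and dotted lines give the share in windows 5000 bp away. AP-1 letters stood at 16.5% in siCTCF-only regions and at 9.29% to 13% in the other classes.

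Along the chromosomes the siCTCF-only regions were spread widely, with a small group of dense clusters. Their share of the regions in at least 2 libraries ranged from 10.2% on chromosome 19 to 15.5% on chromosome 15. The nearest region in at least 2 libraries was another siCTCF-only region for 1856 of them (16.9%, interval 16.2 to 17.6), compared with the 13.2% that they make up among such regions. Other classes also had neighbours of their own class more often than their share. The values were 6.1% against 1.85% for control-only regions and 16.9% against 15.2% for regions of both CTCF siRNA libraries and 1 control library. Runs of neighbouring siCTCF-only regions were taken with no other region in at least 2 libraries between them. Of the siCTCF-only regions, 7734 (70.4%) stood alone, 2318 were in pairs and 280 (2.55%) were in 63 runs of 4 or more. The 2 longest runs, of 10 and 8 regions, both lay in VPS13A. Of 6 runs of 6 regions, one was in VPS13A (25250 bp), one in ZNF385B (47550 bp) and one over SH3TC2, which encodes a protein of Schwann cells (56250 bp). Among windows of 1000000 bp, that of chromosome 9 from 79000001 to 80000000, with most of VPS13A, held most siCTCF-only regions, 30 of 89 regions in at least 2 libraries. A window on chromosome 10 with KCNMA1 held 27 of 80 and one on chromosome 2 with ZNF385B held 26 of 62.

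In 4559 of 20090 protein-coding genes (22.7%) the gene body overlapped a siCTCF-only region, and 163 genes had 5 or more. These 163 were long, with a median length of 324 kb against 27.3 kb for all protein-coding genes. VPS13A (244 kb) had the most, 29 of its 40 regions in at least 2 libraries. ZNF385B had 22 of 41, NAALADL2, which encodes a protein related to membrane peptidases, 22 of 124, and KCNMA1, the gene of a calcium-activated potassium channel, 20 of 65. CERS6, which encodes a ceramide synthase, had 17 of 37, ANK3, the gene of the membrane adaptor ankyrin-G, 14 of 78, ZFAND3, a zinc finger gene, 13 of 31, and USP25, which encodes a deubiquitinase, 12 of 19. No control-only region lay in any of the 8 genes, and such regions made up 1.85% of all regions in at least 2 libraries.

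The acetylation called over these genes spread along the gene body. H3K27ac regions covered 8.23% and 4.81% of VPS13A in the control libraries and 37.9% and 43.8% after CTCF siRNA, in 14 and 7 and in 65 and 51 regions. In USP25 the cover was 7.66% and 2.63%, then 28.1% and 40.1%, and in CERS6 28.1% and 17.3%, then 64.4% and 68.9%. ZNF385B went from 12.2% and 8.59% to 25.3% and 47.1%, and KCNMA1 from 27.7% and 24.8% to 48.6% and 56.1%. For the median protein-coding gene of at least 50 kb it was 5.53% and 3.89%, then 6.28% and 8.22%. In NAALADL2 (30.5% and 17%, then 33.2% and 37%), ANK3 (26% and 15.7%, then 32.4% and 42.5%) and ZFAND3 (10.3% and 6.2%, then 19.3% and 23.2%) the difference was smaller. With the 4 H3K27ac lists at equal length, VPS13A was covered by 6.92% and 4.81%, then 28.4% and 30.1%, and USP25 by 7.66% and 2.63%, then 20.1% and 29.5%. Both genes were chosen for their number of siCTCF-only regions, so these values describe the choice.

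**Figure D4:**
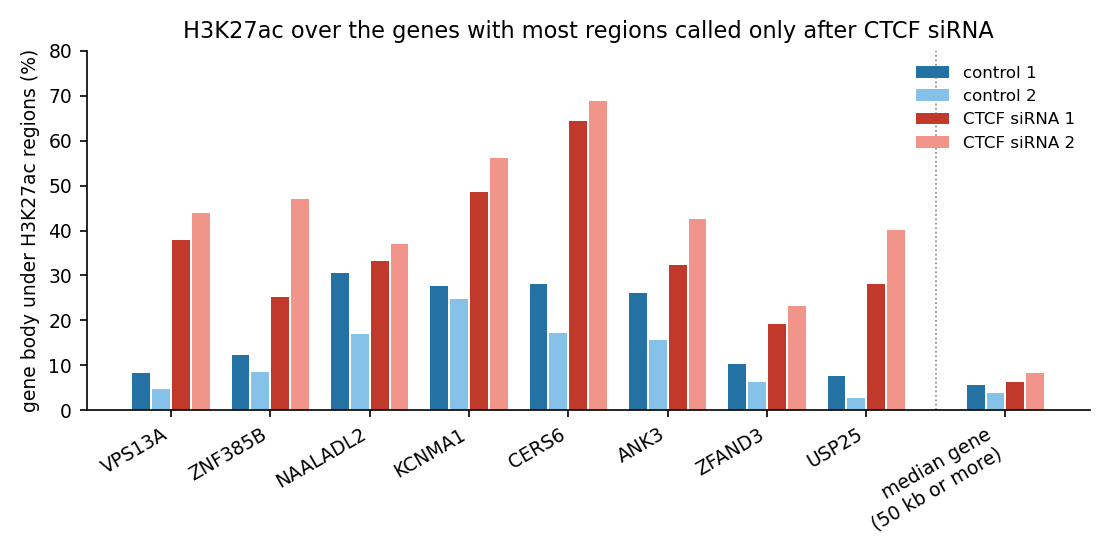
Share of the gene body covered by H3K27ac regions (y axis, per cent) in each H3K27ac library, for the 8 protein-coding genes with most siCTCF-only regions and for the median gene of 50 kb or more. In each of the 8 genes both CTCF siRNA libraries lay above both control libraries, and in VPS13A cover was 8.23% and 4.81% against 37.9% and 43.8%.

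The start sites of all 8 genes carried H3K27ac and H3K4me3 in all 4 libraries of each mark. VPS13A had 2 H3K4me3 regions in every library, and none of its 29 siCTCF-only regions overlapped H3K4me3. They lay from 9.44 to 240 kb from the start of the gene. The 1 control CTCF site in the body of VPS13A was lost. USP25, ZNF385B and VPS13A each had 1 control CTCF site within the gene, ZFAND3, CERS6 and NAALADL2 had 3 each, ANK3 had 9, and KCNMA1 had 10, of which 1 was persistent.

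Around the genes of 9 lists chosen for prostate cells and for responses to siRNA, siCTCF-only regions were counted within the gene body and 10000 bp on either side. Over all protein-coding genes 30.3% had at least 1 there. Of 18 basal epithelial genes 10 had one (55.6%), with 20 regions in all, and the median span of the list was 66.1 kb. No control-only region lay at these genes, but only 5.22% of all protein-coding genes had one. The interferon response and the AP-1 and immediate early lists, among others, had none either. LAMA3, a laminin chain of the basement membrane, had 6, EGFR, the receptor of epidermal growth factor, had 3, and the adhesion gene CD44 and ITGB4, an integrin of hemidesmosomes, had 2 each. At TP63, which encodes the basal cell factor p63, the single region in an intron (chr3:189483701-189485000) was 600 and 1300 bp wide in the CTCF siRNA libraries and overlapped H3K4me3 in control replicate 2 and in both CTCF siRNA libraries.

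The androgen response list had a siCTCF-only region at 8 of 20 genes (40%), among them 6 at ABCC4, a drug and prostaglandin exporter, and 3 at ZBTB16. CENPN, of the kinetochore, and ELL2, an elongation factor of RNA polymerase II, had 2 each, and all 20 genes also had shared regions. In the list of luminal transcription factors, 1 region lay near FOXA1 and 1 in GRHL2. Among 18 p53 targets 7 had one (38.9%), with 2 at SESN1, and SESN2, which encodes a stress-induced sestrin, held a region 4800 bp wide. Of 17 AP-1 and immediate early genes 4 had one (23.5%), with 3 at ATF3, 2 at FOSL2 and 1 each at EGR2 and KLF6. The mesenchymal list gave 4 of 17 (23.5%), with 5 regions at FN1, the fibronectin gene, 2 at SPARC and 1 each at COL1A1 and PDGFRB. Interferon response genes gave 5 of 20 (25%), 4 of the regions at IRF1, neuroendocrine and neuronal genes 3 of 18 (16.7%), and ribosomal protein genes 3 of 20 (15%). The lists differ in gene length, and no test was made of them.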

How the data were processed

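LNCaP libraries of H3K27ac, H3K4me3 and CTCF (2 per treatment) were analysed, and IMR90 libraries were not used here. Per the labels and the study's methods, 50-bp reads were aligned to hg19 with Bowtie. The authors called CTCF peaks with MACS2 at an FDR of 0.05 with 200-bp fragments, and PeakRanger regions for the histone marks, library by library. Deposited histone lists hold positions and a score whose meaning is not given in the sources used here. In the CTCF lists the authors give fold enrichment, a ratio to local background, and deposited p-values and q-values on a −log10 scale. The lists hold no read counts, so only the presence of a region could be compared, and the reads behind a single region are unknown. A region missing from a list may lie just under the caller's threshold. Per library, the study's reporting summary gives by far the fewest reads of the LNCaP CTCF libraries for CTCF siRNA replicate 1. Of the H3K27ac libraries, CTCF siRNA replicate 2 had the fewest reads and the longest list. The part of sequencing depth in the calls was not tested.

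Where lists were shortened, lower scores came first, and wider regions first among equal scores. Regions overlapping by 1 bp were merged, distances were taken between edges, and genes came from GENCODE release 44 on hg19. No region or peak (0 of 631810) ended beyond its chromosome. Gene position was assigned in the order start site (1000 bp either side), exon, intron, other gene. Fold enrichment of a control CTCF site was the mean of the highest peak of each control library, split into 4 equal groups. Motif letters were counted in 500 bp around the middle of each merged region, and the CTCF consensus was searched within 100 bp of a summit. Shares carry Wilson 95% intervals. Libraries were compared by exact two-sided permutation tests. Scripts were tested on simulated regions. Python 3.11.15, numpy 2.4.6, pandas 2.3.3, scipy 1.17.1, pysam 0.24.0 and matplotlib 3.10.9 were used.

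The regions, gene lists and tests were chosen with earlier results of these data known, and the motifs, the CTCF strength groups, the cover of gene bodies and the printed sequences after looking at these files. Named were the 5 widest regions, the 5 longest runs, the 8 genes and 3 windows with most regions, the 8 widest regions at a start site that also switched in H3K4me3, the 4 widest over a lost and over a persistent CTCF site, any over a gained site, and up to 4 genes a list with most regions. TP63 was named after its values were seen. One list gene did not match the annotation, and some genes of the marker and transcription factor lists are not reported here. As alternatives, regions had to overlap by 50% of the shorter one, lists were set to equal length or to their lower-scored 50%, and further settings were merging up to 1000 bp apart, a q-value of at most 0.001, a stricter rule for lost sites, the start site alone, the replicate number as a block, and leaving out each library.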

Additional observations from a re-analysis of the deposited data

How the results depend on the processing

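The count of siCTCF-only regions depended on the lists. With one H3K27ac library left out it ranged from 13409 (without control replicate 2) to 30407 (without CTCF siRNA replicate 1), with 21403 without control replicate 1 and 23755 without CTCF siRNA replicate 2. It was 5918 with lists of equal length and 6360 with the lower-scored 50% of each list, of which 917 (14.4%) overlapped the regions described, or 8.34% of them. For the following shares, values without one H3K27ac library are given as a range. Start sites ranged from 5.11% to 6.97%, and gave 6.39% at equal length, 10.1% in the lower-scored 50% and 3.25% for the start site alone. Lost CTCF sites ranged from 2.69% to 4.41%, and gave 3.08% with an overlap of 50% of the shorter region, 5.36% at equal length, 7.33% in the lower-scored 50%, 4.77% with merging up to 1000 bp and 3.34% when any peak after CTCF siRNA kept a site from being lost. The median distance to a lost site ranged from 24600 to 27200 bp, with 24900 bp under 50% overlap and 23400 bp in the lower-scored 50%. That to a shared region ranged from 8450 to 10200 bp, with 8750 bp under 50% overlap, 12900 bp at equal length, 17400 bp in the lower-scored 50% and 14700 bp with merging. The share with a siCTCF-only neighbour ranged from 20.2% to 33.6%, where siCTCF-only regions made up 16.8% to 30.5% of all regions, with 21.3%, 13.1%, 18% and 15.4% under these 4 settings, against 16.7%, 8.75%, 14.1% and 12.4% of all regions. AP-1 matches ranged from 12.7% to 16.1%, with 15.6% under 50% overlap, 18.1% at equal length and 25.7% in 1000-bp windows, and exceeded those of shared regions (10.5% to 19.1%) under the same setting each time. Persistence of CTCF sites, chosen like the AP-1 share after seeing the data, ranged from 15.1% to 18.4%, with 15.7% at equal length and 12.5% in the lower-scored 50%, against 5.38% to 6.84% at shared regions. The H3K4me3 difference was positive under every alternative, from 3 to 5.69 percentage points without one H3K27ac library (the groups overlapped, with an exact permutation p of 0.667, without control replicate 1 and without CTCF siRNA replicate 1), from 1.92 (without CTCF siRNA replicate 2) to 8.73 without one H3K4me3 library, and 12.1 in the lower-scored 50%. VPS13A held 10 to 54 and ZNF385B 8 to 50 siCTCF-only regions over the alternatives.

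The replicate numbers are shared by the groups without a stated batch. With the number as a block the H3K4me3 difference was 5.33 percentage points (exact sign flips, p = 0.5, the smallest possible with 2 pairs), and the deviations of same-numbered libraries correlated at 0.103 across regions. Lists without read counts cannot show how far acetylation changed, and a call only after CTCF siRNA may rest on a small change at the caller's threshold. The study compared read counts of these H3K27ac libraries over its own set of merged peaks. It reported a significant change, in either direction, at a small part of them. The count of siCTCF-only regions is therefore no measure of how many regions gained acetylation.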
